A study of Mus musculus with 16 samples.

Results

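The 10 genes described here mark opposite zones of the mouse liver lobule and were followed across the 4 groups of the study. They were taken from the count table by symbol and make up 10 of its 53372 genes. Glul, Oat, Axin2, Lgr5, Tbx3 and Rgn are pericentral markers, and Aldh1b1, Hsd17b13, Cdh1 and Pigr are periportal markers. Each symbol matched 1 row, and all 10 genes passed the filter on low counts.

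Hepatocytes differ along the axis of the lobule. Blood enters at the portal tract and leaves at the central vein. Endothelial cells of the central vein release Wnt ligands, and Wnt signalling through beta-catenin keeps the neighbouring pericentral hepatocytes in a programme of glutamine synthesis and xenobiotic metabolism. Periportal hepatocytes, far from that source, carry out gluconeogenesis and urea synthesis and secrete many plasma proteins. In a whole-liver library the zones are mixed, so that the level of a zonal gene gives no position, and fewer cells of a type and less RNA per cell cannot be told apart.

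The RNA came from livers of FVB/NCrl mice that received diphenyl phosphate (DPhP), an organophosphate formed from aryl phosphate flame retardants and plasticisers. The control group (CTRL) received 0 mg/L, and the other groups received 0.1 mg/L (C1), 1 mg/L (C2) or 10 mg/L DPhP (C3). The sources used here do not give the age or number of the mice, nor the route and length of exposure. All livers of a group went into 1 pool, and the 4 libraries of a group repeat the measurement of that pool. P-values thus reflect technical spread, and pool and concentration cannot be told apart. All 3 treated groups were compared with the same CTRL libraries.

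The libraries held between 14434761 (C1-3) and 45109243 counts (C2-1). In 3 libraries (C3-4, C2-3 and C2-4) nuclear-retained RNA was higher than in the rest of their own pools. The mean log2 CPM of Kcnq1ot1, Malat1, Neat1 and Xist was 9.97, 10.15 and 10.07 in them, and lay between 8.44 and 9.39 in the other 13. The comparisons of the zonation markers with CTRL are therefore also given without these 3 libraries, in the text or in the plot of fold changes. The other 13 were not alike, with 8.44 to 9.01 in CTRL and 9.02 to 9.39 in C1. At an edgeR adjusted p under 0.05 and with all libraries, 3 of the 4 RNAs were higher in C2 and none in C1 or C3. Of all genes, 2.32%, 18.3% and 1.4% passed in C1, C2 and C3 in that fit. Without the 3 libraries, 3 of the RNAs were higher in C1, 1 in C2 and 3 in C3 at the same threshold. Of all genes, 14.6%, 28% and 6.09% then passed in either direction. Leaving the 3 libraries out thus did not level nuclear-retained RNA with CTRL. Alb, the hepatocyte product albumin, stood at 47954 ± 5147 CPM in CTRL (SD, n = 4 libraries). CPM are counts scaled to library size with TMM factors. Errors of log2 fold changes are SE, and positions are those of GRCm38.

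Tbx3 was the 1 zonation marker that rose in every treated group, and Aldh1b1, Pigr and Axin2 changed in C2. A change was called at an edgeR adjusted p under 0.05. In C1 the call took in 1 of the 10 markers, Tbx3 (higher), against 2.32% of the 17810 genes tested (0.938% higher, 1.39% lower). In C2 it took in 4 of 10, with Tbx3 and Axin2 higher and Aldh1b1 and Pigr lower, against 18.3% of all genes (8.03% higher, 10.2% lower). In C3 it again took in only Tbx3 (higher), against 1.4% of all genes (0.522% higher, 0.876% lower). Of all genes called in C2, 1430 were higher and 1824 lower, a split that upper-quartile scaling turned to 1969 higher and 1395 lower. The 4 calls among the markers kept their directions under that scaling.

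Without C2-3, C2-4 and C3-4 the marker calls shifted, as did those of all genes. In C1 there were then 4 calls, Tbx3 and Oat higher and Aldh1b1 and Pigr lower, against 14.6% of the 18468 genes tested. In C2 there were 4, Tbx3 and Rgn higher and Aldh1b1 and Pigr lower, against 28% of all genes. In C3 Tbx3 remained the only call, against 6.09%. Tbx3 was thus called in all 3 treated groups both with and without the 3 libraries.

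**Figure D1:**
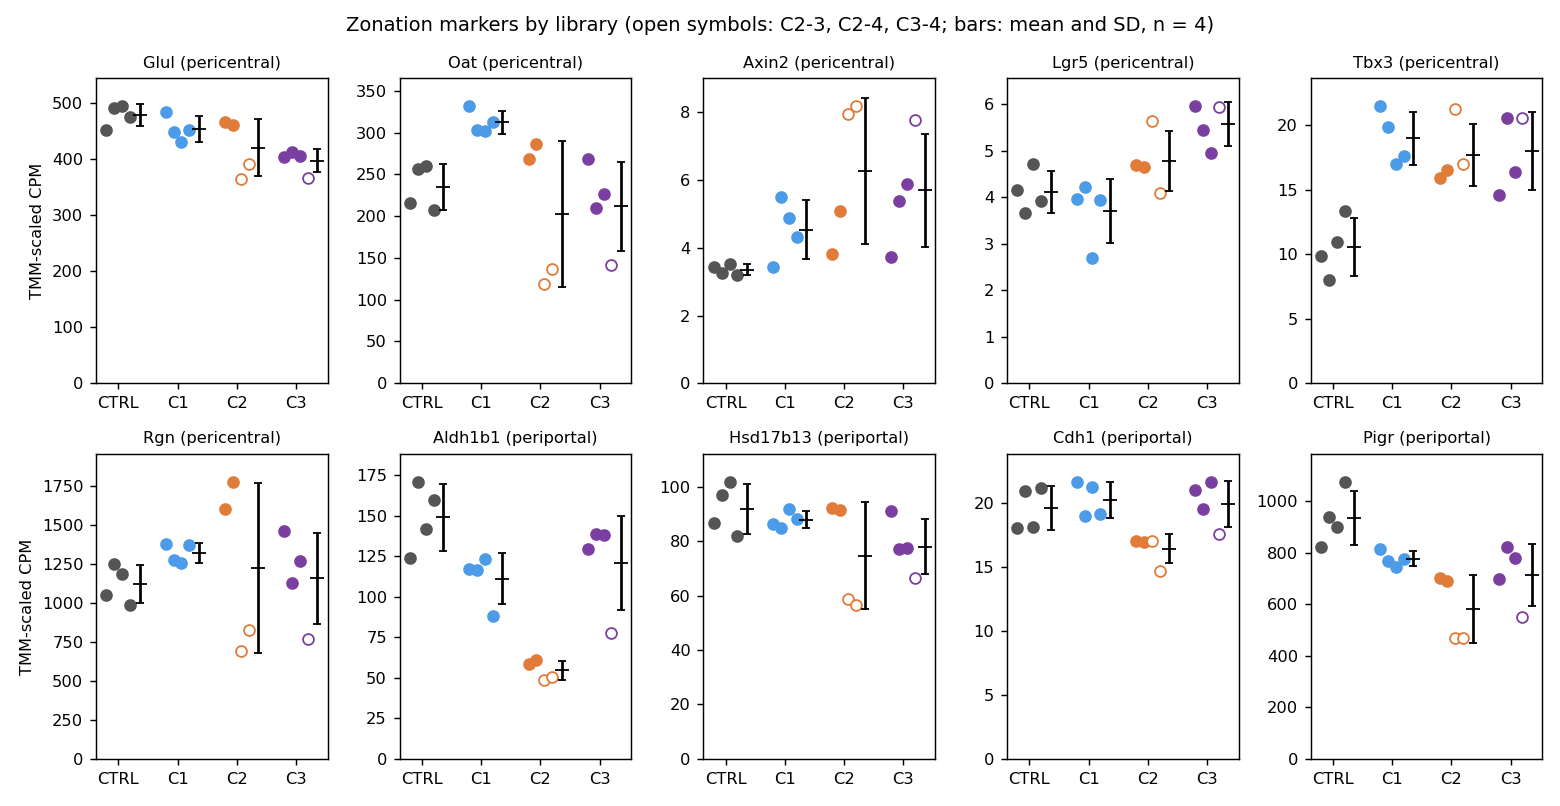
Level of each zonation marker in TMM-scaled CPM (vertical axes, starting at 0) in the 4 libraries of CTRL, C1, C2 and C3. Points are libraries, open where the library is C2-3, C2-4 or C3-4, and bars give the mean and SD. All C2 libraries of Aldh1b1 lie between 48.8 and 60.9 CPM, below every library of the other groups, and all treated libraries of Tbx3 lie above CTRL.

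Levels between genes were compared per exon length, as RPKM in CTRL. Rgn was highest at 698 ± 75.2 RPKM, followed by Pigr at 232 ± 26.4, Glul at 144 ± 5.78 and Oat at 99.6 ± 11.6. Aldh1b1 stood at 64.9 ± 8.95 and Hsd17b13 at 42.5 ± 4.25. Cdh1 (4.28 ± 0.376), Tbx3 (1.59 ± 0.338), Axin2 (0.609 ± 0.0281) and Lgr5 (0.401 ± 0.0435) were the lowest, and the metabolic markers and Pigr lay far above them. No 2 neighbours in this order overlapped between their CTRL libraries. For C2 the order of Hsd17b13 (34.6 ± 9.15 RPKM) and Aldh1b1 (23.8 ± 2.54) was turned round. Their ranges over the libraries overlapped, but Hsd17b13 was above Aldh1b1 within each C2 library. The ranges of Pigr and Glul, and of Glul and Oat, also overlapped in C2. Within each C2 library Glul was above Oat, while Pigr was below Glul in C2-4 (116.6 and 117.6 RPKM) and above it in the others.

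Among the pericentral genes, Axin2, Lgr5 and Tbx3 belong to the Wnt response itself. Tbx3 (5:119670669-119684724, plus strand) encodes a T-box transcriptional repressor and is a Wnt target in pericentral hepatocytes. Its CTRL libraries gave 9.85, 7.98, 11.0 and 13.3 CPM, in the order of libraries 1 to 4. The C1 libraries gave 21.5, 19.9, 17.0 and 17.6 CPM, the C2 libraries 15.9, 16.6, 21.2 and 17.0, and the C3 libraries 14.6, 20.5, 16.4 and 20.6. Every treated library was above every CTRL library, while the 3 treated groups overlapped each other. The means were 10.5 ± 2.24 CPM for CTRL, 19.0 ± 2.06 for C1, 17.7 ± 2.41 for C2 and 18.0 ± 3.03 for C3 (SD, n = 4). The log2 fold change was 0.85 ± 0.16 in C1 (edgeR adjusted p = 0.00648), 0.74 ± 0.16 in C2 (edgeR adjusted p = 0.00384) and 0.77 ± 0.16 in C3 (edgeR adjusted p = 0.0181). The levels at 10 mg/L and 0.1 mg/L differed by less than their spread, and the log2 difference between C3 and C1 was -0.08 (95% interval -0.40 to 0.24), or -0.16 without the 3 libraries that stood apart. Against CTRL the log2 fold changes without those libraries were 0.85, 0.64 and 0.70 in C1, C2 and C3. The C3 call was lost when CTRL-1 (0.74), CTRL-2 (0.67), CTRL-3 (0.79) or C3-4 (0.71) was left out, while the calls in C1 and C2 held in all 18 alternatives.

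The antisense gene Tbx3os1 shares 115 bases of exon with Tbx3 on the opposite strand. Since the strand setting of the counts is not known, reads in that overlap cannot be assigned with certainty. Mean Tbx3os1 levels were 7.48 CPM for CTRL, then 8.77 (C1), 12.3 (C2) and 9.14 (C3). It rose in C2 (by 0.71 ± 0.17 on the log2 scale, edgeR adjusted p = 0.00751) and was not called in C1 (0.23 ± 0.17) or C3 (0.29 ± 0.17).

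Axin2 (11:108920349-108950783, plus strand) encodes a scaffold of the beta-catenin destruction complex and is induced by Wnt signalling as a negative feedback. Its counts were low, between 65 and 194 per library. The CTRL libraries gave 3.44, 3.26, 3.52 and 3.19 CPM and the C1 libraries 3.44, 5.51, 4.87 and 4.31. The C2 libraries gave 3.81, 5.09, 7.97 and 8.19 CPM and the C3 libraries 3.73, 5.39, 5.90 and 7.79. All C2 and C3 libraries were above CTRL, and within each of these groups C2-3, C2-4 and C3-4 were the highest. The mean was 3.35 ± 0.155 CPM for CTRL, 4.54 ± 0.878 for C1, 6.26 ± 2.16 for C2 and 5.70 ± 1.67 for C3. Axin2 rose in C2 by a log2 fold change of 0.87 ± 0.24 (edgeR adjusted p = 0.0205). Values of 0.42 ± 0.25 in C1 (edgeR adjusted p = 0.438) and 0.76 ± 0.24 in C3 (edgeR adjusted p = 0.139) were not called. Without the 3 libraries that stood apart the C2 value was 0.42 ± 0.19 and no longer called, with a C2 mean of 4.45 ± 0.908 CPM, and the C3 value was 0.55 ± 0.18, again not called. The antisense gene Gm11670 shares 209 bases of exon with Axin2 and had 0 to 8 counts per library. Leaving out CTRL-4 (0.84), C2-3 (0.74) or C2-4 (0.72) alone also ended the call of Axin2, as did limma-voom (0.72).

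Lgr5 (10:115450311-115587780, minus strand), a receptor for R-spondins, which enhance Wnt signalling, was counted 36 to 200 times per library. The mean was 4.11 ± 0.446 CPM for CTRL, 3.71 ± 0.684 for C1, 4.77 ± 0.645 for C2 and 5.57 ± 0.480 for C3. The 4 C3 libraries (4.95 to 5.96 CPM) lay above the CTRL libraries (3.66 to 4.71 CPM), and C1 and C2 overlapped CTRL. The C3 difference of 0.44 ± 0.15 on the log2 scale was not called (edgeR adjusted p = 0.161), and stood at 0.41 ± 0.15 without C3-4 and the 2 C2 libraries. In C1 the value was -0.14 ± 0.15 and in C2 0.21 ± 0.15.

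Glul, Oat and Rgn are metabolic markers of the pericentral zone, and none of the 3 was called against CTRL in any treated group with all libraries included. Glul (1:153899944-153909723, plus strand) encodes glutamine synthetase, which takes up ammonia in the last hepatocytes before the central vein. Its mean was 478 ± 19.2 CPM for CTRL, 453 ± 22.7 for C1, 419.7 ± 50.7 for C2 and 396 ± 20.8 for C3. The C3 libraries (366 to 412 CPM) lay below the CTRL libraries (452 to 494 CPM). The C3 log2 fold change was -0.27 ± 0.12 (edgeR adjusted p = 0.266), with a 95% interval of -0.51 to -0.02 before adjustment, and was -0.24 ± 0.07 without the 3 libraries. In C2 the value moved from -0.19 ± 0.12 to -0.03 ± 0.08 when C2-3 (363 CPM) and C2-4 (391 CPM) were left out.

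Oat (7:132557478-132576398, minus strand) encodes the mitochondrial ornithine aminotransferase. The CTRL libraries gave 216, 257, 260.4 and 207 CPM and the C1 libraries 332, 303, 301 and 313. The C2 libraries gave 268, 286, 118 and 136 CPM and the C3 libraries 269, 210.0, 227 and 141. All C1 libraries were above CTRL, and C2-3, C2-4 and C3-4 were below every other library. The log2 fold change was 0.41 ± 0.24 in C1 (edgeR adjusted p = 0.44), -0.21 ± 0.24 in C2 (edgeR adjusted p = 0.56) and -0.15 ± 0.24 in C3 (edgeR adjusted p = 0.807). With C2-3, C2-4 and C3-4 left out, the C1 value of 0.40 ± 0.09 was called higher, while the C2 value turned to 0.25 ± 0.10 and was not called, and the C3 value was -0.0022 ± 0.09. The CTRL and C1 libraries are the same in both fits.

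Rgn (X:20549787-20562089, plus strand) encodes regucalcin, a calcium-binding gluconolactonase. The CTRL libraries gave 1054, 1255, 1187 and 990.2 CPM and the C1 libraries 1379, 1278, 1260.2 and 1371. The C2 libraries gave 1605, 1779, 695 and 828 CPM and the C3 libraries 1466, 1131, 1269 and 768. C2-1 and C2-2 were the highest of all 16 libraries, and C2-3, C2-4 and C3-4 the lowest. With all libraries the log2 fold changes of C1, C2 and C3 were 0.24 ± 0.25, 0.13 ± 0.25 and 0.05 ± 0.25, and none was called (edgeR adjusted p = 0.715, 0.752 and 0.949). Without the 3 libraries it was 0.61 ± 0.11 in C2, which was called higher, 0.23 ± 0.09 in C1 and 0.20 ± 0.09 in C3, which were not.

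**Figure D2:**
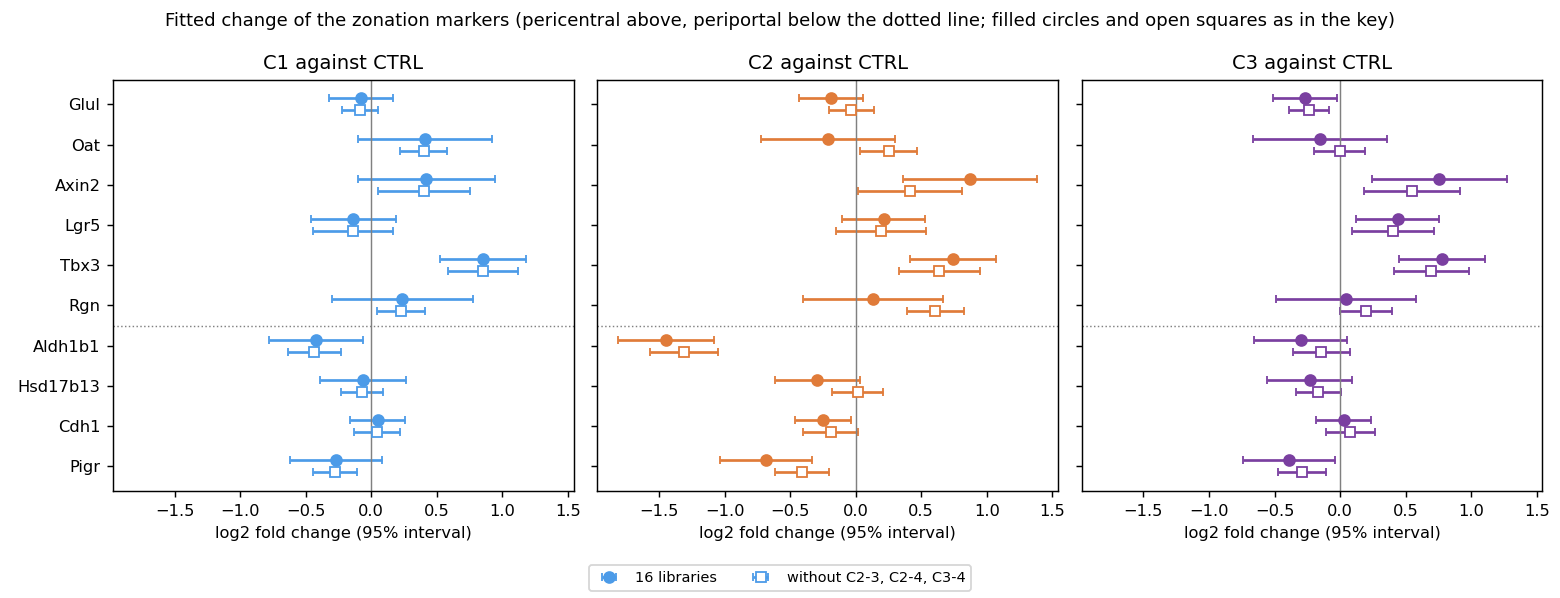
Log2 fold change of each zonation marker against CTRL (horizontal axes, with 95% intervals before adjustment) from the edgeR fit of all 16 libraries and from the fit without C2-3, C2-4 and C3-4. Pericentral genes stand above the dotted line and periportal genes below it. Tbx3 lies to the right of 0 in every panel, Aldh1b1 lies at -1.45 in C2, and Rgn in C2 moves from 0.13 to 0.61 when the 3 libraries are left out.

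The periportal markers fell in C2 in 2 of 4 cases, Aldh1b1 and Pigr, and none was called in C1 or C3. At an unadjusted p under 0.05 there was 1 periportal marker in C1, 3 in C2 and 1 in C3. Of the 6 pericentral markers there were 1, 2 and 4 at that threshold. The share of all genes at an unadjusted p under 0.05 was not counted. DESeq2 and limma-voom called no periportal marker in C1 or C3. Aldh1b1 (4:45799022-45804604, plus strand) encodes a mitochondrial aldehyde dehydrogenase that oxidises acetaldehyde and retinal. The CTRL libraries gave 124, 171, 142 and 159.6 CPM and the C1 libraries 117, 116, 123 and 88.1. The C2 libraries gave 58.3, 60.9, 48.8 and 50.7 CPM and the C3 libraries 129.6, 139, 138 and 77.8. The C2 libraries lay below all others, the C1 libraries lay below CTRL, and C3 overlapped CTRL. The mean was 149 ± 20.6 CPM for CTRL, 111 ± 15.7 for C1, 54.7 ± 5.84 for C2 and 121 ± 29.1 for C3. The fall in C2 was -1.45 ± 0.17 on the log2 scale (edgeR adjusted p = 4.73e-05), or 0.367 of the CTRL level. It held in all 18 alternatives, between -1.53 and -1.31, and was -1.31 ± 0.13 without the 3 libraries. In C1 the value was -0.42 ± 0.17 (edgeR adjusted p = 0.223), and it was called lower at -0.43 ± 0.10 without the 3 libraries. In C3 it was -0.30 ± 0.17 (edgeR adjusted p = 0.399) and -0.14 ± 0.11 without them.

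Pigr (1:130826684-130852249, plus strand) encodes the polymeric immunoglobulin receptor, which carries IgA across epithelial cells into bile. The CTRL libraries gave 821, 940.5, 901 and 1075 CPM and the C1 libraries 814, 769, 744 and 778. The C2 libraries gave 704, 689, 468 and 469 CPM and the C3 libraries 700.0, 824, 779 and 552. All C1 and C2 libraries were below CTRL, and C3 overlapped it at 1 library. The mean was 935 ± 106 CPM for CTRL, 776 ± 29.1 for C1, 582 ± 132 for C2 and 714 ± 119 for C3. Pigr fell in C2 by 0.68 ± 0.17 on the log2 scale (edgeR adjusted p = 0.0103), and the fall without the 3 libraries was 0.41 ± 0.10 and still called. The C2 call was lost in 1 of 18 alternatives, the fit of CTRL and C2 alone (-0.65). The values of -0.27 ± 0.17 in C1 (edgeR adjusted p = 0.467) and -0.39 ± 0.17 in C3 (edgeR adjusted p = 0.264) were not called, and without the 3 libraries the C1 value of -0.28 ± 0.08 was.

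Hsd17b13 (5:103955440-103977410, minus strand) encodes a hydroxysteroid dehydrogenase of hepatocyte lipid droplets. Its mean was 91.7 ± 9.16 CPM for CTRL, 87.8 ± 3.11 for C1, 74.7 ± 19.7 for C2 and 78.0 ± 10.1 for C3. In C2 the libraries gave 92.1, 91.4, 58.6 and 56.6 CPM, so that C2-1 and C2-2 stood within the CTRL range (81.7 to 102 CPM) and C2-3 and C2-4 below it. No comparison with CTRL was called, and the C2 value of -0.29 ± 0.15 (edgeR adjusted p = 0.19) became 0.01 ± 0.09 without the 3 libraries. The values in C1 and C3 were -0.06 ± 0.15 and -0.23 ± 0.15.

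Cdh1 (8:106603351-106670246, plus strand) encodes E-cadherin, which joins periportal hepatocytes and bile duct cells to their neighbours. Its mean was 19.6 ± 1.72 CPM for CTRL, 20.2 ± 1.4 for C1, 16.4 ± 1.15 for C2 and 19.9 ± 1.82 for C3. The 4 C2 libraries (14.7 to 17.0 CPM) lay below the CTRL libraries (18.1 to 21.2 CPM). The C2 difference of -0.25 ± 0.10 (edgeR adjusted p = 0.0884) was not called, and was -0.19 ± 0.10 without the 3 libraries. The 95% intervals before adjustment were -0.16 to 0.26 in C1 and -0.18 to 0.24 in C3.

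Counted by overlap alone, 5 of the 10 markers had all 4 C1 libraries outside the CTRL range (Tbx3, Oat and Rgn above, Aldh1b1 and Pigr below), against 18.2% of all genes. In C2 there were 5 (Tbx3 and Axin2 above, Aldh1b1, Pigr and Cdh1 below), against 20.7% of all genes. In C3 there were 4 (Tbx3, Axin2 and Lgr5 above, Glul below), against 12.8%. The pericentral markers that left the CTRL range were all above it in C1 and C2, and the periportal markers that left it were all below it. The median log2 fold change was 0.32, 0.17 and 0.24 over the 6 pericentral markers in C1, C2 and C3, and -0.17, -0.49 and -0.27 over the 4 periportal markers. When the 3 libraries were left out these medians were 0.32, 0.33 and 0.30, and -0.17, -0.30 and -0.16. The median over all genes tested was 0.01, 0.03 and 0.00. The pericentral markers did not all share a sign, with Glul at -0.27 (not called) beside Tbx3 at 0.77 in C3. The 4 periportal markers all had negative values in C2 (-1.45 to -0.25). In C3 Cdh1 was at 0.03 beside Pigr at -0.39, and neither was called.

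**Figure D3:**
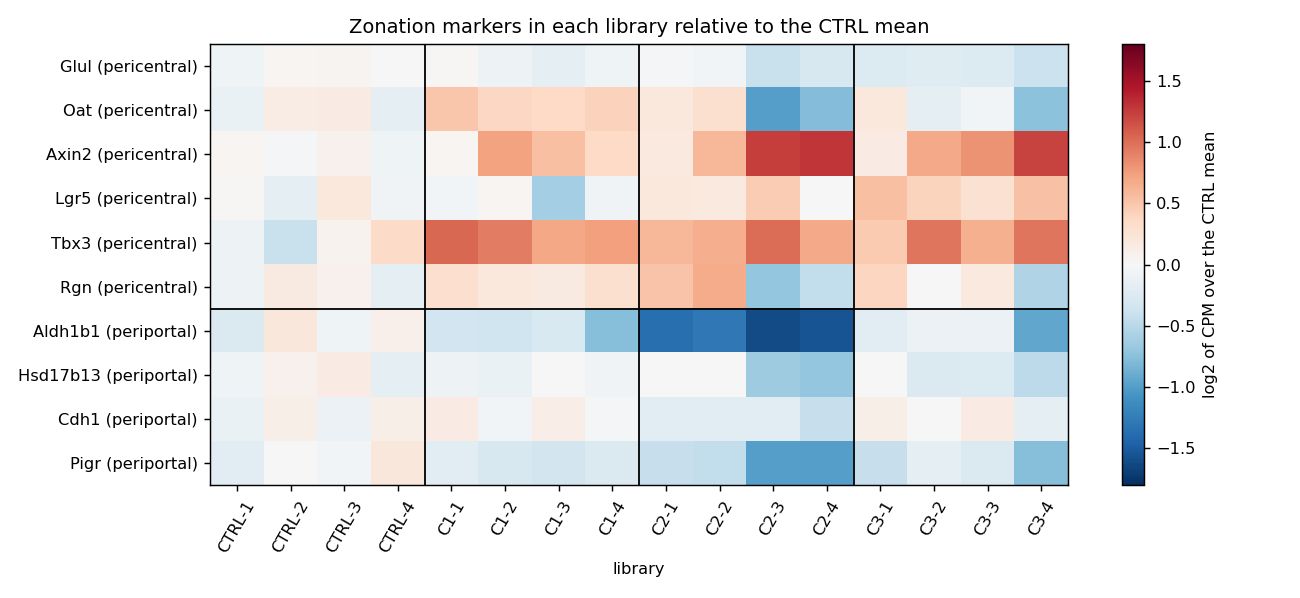
Log2 ratio of each zonation marker's CPM to its mean in CTRL (colour), for each of the 16 libraries (columns) and 10 genes (rows). Aldh1b1 is lowest in the 4 C2 libraries and Tbx3 is above its CTRL mean in all treated libraries. C2-3, C2-4 and C3-4 have lower Oat and Rgn than the other libraries of their pools.

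The treated groups differed from each other at Aldh1b1. Its level in C2 was lower than in C1 by a log2 difference of -1.02 ± 0.17 (edgeR adjusted p = 0.00297), the 1 call among the 10 markers where 2.06% of all genes were called. Its level in C3 was higher than in C2 by 1.14 ± 0.17 (edgeR adjusted p = 0.00242), again 1 call of 10 where 1.44% of all genes were called. The Aldh1b1 libraries of C2 did not overlap those of C1 or C3, so that the middle concentration had the lowest level. Both differences were also called without C2-3, C2-4 and C3-4, at -0.88 for C2 against C1 and 1.16 for C3 against C2. The difference between C3 and C2 was not called when these 2 groups were fitted alone (1.12 on the log2 scale). Between C3 and C1 no marker was called, against 0.87% of all genes. There 2 markers (Oat and Lgr5) had an unadjusted p under 0.05, DESeq2 called 1 and limma-voom called none. The unadjusted count was 5 of 10 for C2 against C1 and 2 for C3 against C2. The share of all genes at an unadjusted p or with those tools was not counted for these comparisons. With C2-3, C2-4 and C3-4 left out, Rgn was also higher in C2 than in C1 (0.38) and lower in C3 than in C2 (-0.41), and Oat was lower in C3 than in C1 (-0.40). In those fits 18.7%, 14.3% and 3.41% of all genes were called for C2 against C1, C3 against C2 and C3 against C1.

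The sequence before the gene start is shown for the 3 called markers that have one in the RefSeq promoter table (GRCm38.p6), which held 6 of the 10 markers. Each window runs 5′ to 3′ from 250 bases before to 50 bases after the start, and capitals mark a CCAAT box (CCAAT, or ATTGG on the other strand) or a GC box (GGGCGG). Axin2, which rose in C2, has the window chr11:108920099-108920398 on the plus strand. Aldh1b1 and Pigr, which fell together in C2, have chr4:45798772-45799071 and chr1:130826434-130826733, both on the plus strand.
Axin2: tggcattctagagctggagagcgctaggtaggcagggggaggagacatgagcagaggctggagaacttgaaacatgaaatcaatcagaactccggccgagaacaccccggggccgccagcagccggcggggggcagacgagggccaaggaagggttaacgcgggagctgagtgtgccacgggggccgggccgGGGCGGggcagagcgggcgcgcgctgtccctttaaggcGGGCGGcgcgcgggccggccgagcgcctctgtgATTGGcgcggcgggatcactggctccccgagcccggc
Aldh1b1: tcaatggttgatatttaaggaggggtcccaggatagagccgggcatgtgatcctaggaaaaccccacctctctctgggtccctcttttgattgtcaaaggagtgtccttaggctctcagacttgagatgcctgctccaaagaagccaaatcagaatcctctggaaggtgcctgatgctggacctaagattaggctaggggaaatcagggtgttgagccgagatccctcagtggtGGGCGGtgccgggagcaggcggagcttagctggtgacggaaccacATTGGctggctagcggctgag
Pigr: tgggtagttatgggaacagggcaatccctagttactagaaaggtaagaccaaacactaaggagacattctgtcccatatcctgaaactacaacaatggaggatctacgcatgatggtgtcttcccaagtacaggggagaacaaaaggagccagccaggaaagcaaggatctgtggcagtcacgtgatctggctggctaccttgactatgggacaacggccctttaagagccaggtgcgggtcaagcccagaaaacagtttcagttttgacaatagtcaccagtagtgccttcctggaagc
Axin2 and Aldh1b1 hold both kinds of box, and Pigr holds neither. Over all 32851 windows of the table, searched on both strands, 37.4% hold CCAAT and 35.7% hold GGGCGG. The Axin2 window has 70.0% G and C and 31 CpG sites. Aldh1b1 has 54.7% and 7 sites, and Pigr 49.0% and 4 sites, beside medians of 52.7% and 7 over all windows. Of the other matched markers, Glul (64.3%, 17 CpG sites) and Oat (61.7%, 22 sites) hold both boxes and Hsd17b13 (47.0%, 3 sites) neither. None of the 6 windows holds a TCF/LEF heptamer, spelled CTTTGAA with its variants CTTTGAT and further CTTTGTA and also CTTTGTT, which 16.9% of all windows hold. None holds the HNF4 motif CAAAGTCCA (0.475%) or TATAAA (13.6%). These matches describe letters in 300 bases and no binding.

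Other genes with the same zonation were listed to place the 10 markers. For this list and those that follow, the share of all genes called was 2.32% in C1, 18.3% in C2 and 1.4% in C3. Without C2-3, C2-4 and C3-4 it was 14.6%, 28% and 6.09%. These shares hold for edgeR at the adjusted threshold only. Against CTRL, DESeq2 called 896 (C1), 4088 (C2) and 737 (C3) of all genes. The totals of limma-voom were 416 (C1), 3042 (C2) and 238 (C3). How many of all genes had an unadjusted p under 0.05 was not counted. List counts at that threshold therefore cannot be set against a background. Of 18 further pericentral genes, 1 rose and none fell in C1, and none rose and 4 fell in C2. Of all genes, 8.03% rose and 10.2% fell in C2. The gene that rose in C1 was Cyp1a2, a cytochrome P450 that oxidises caffeine and aromatic amines, from 166 ± 36.7 to 273 ± 27.6 CPM (log2 fold change 0.72 ± 0.15, edgeR adjusted p = 0.0176). That call was lost when CTRL-1, CTRL-2, CTRL-3, C1-1 or C1-3 was left out, and its values lay between 0.65 and 0.88 over all 8 such fits. In C2 the largest falls were in Rhbg, an ammonium transporter, by 0.64 ± 0.17, Cyp7a1, the rate-limiting enzyme of bile acid synthesis, by 0.61 ± 0.12, and Aldh3a2, a fatty aldehyde dehydrogenase, by 0.58 ± 0.17 on the log2 scale. The Aldh3a2 call was lost in 5 of 18 alternatives, among them the leave-out of CTRL-2, CTRL-3, C2-3 or C2-4, and its value without the 3 libraries was -0.28 and still called. The count of 4 ranged from 1 to 4 when single libraries were left out, with 1 call left without CTRL-2. In C3 none was called, 4 had an unadjusted p under 0.05, DESeq2 called 2 and limma-voom none. Cyp2e1, the ethanol-oxidising P450 and the highest of the list, stood at 2560 ± 370.4 CPM in C3 and 3476 ± 306 in CTRL, and Slco1b2, an organic anion uptake carrier, at 1325 ± 116 and 1325 ± 108. The list had median log2 fold changes of -0.01, -0.16 and -0.17 for C1, C2 and C3, which became -0.02, 0.06 and -0.07 when the 3 libraries were left out. Without the 3 libraries 3 rose and 1 fell in C1, 5 rose and 5 fell in C2, and 1 rose and 3 fell in C3.

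Of 19 further periportal genes, none rose and 2 fell in C1, and none rose and 9 fell in C2. The share of all genes that fell was 1.39% in C1 and 10.2% in C2. Fbp1, fructose-1,6-bisphosphatase of gluconeogenesis, fell in C2 from 562 ± 42.7 to 259 ± 24.3 CPM (log2 fold change -1.12 ± 0.15, edgeR adjusted p = 0.000116). Cyp2f2, a periportal P450, fell by 0.92 ± 0.18 on the log2 scale, and Igfals, which holds IGF in a circulating complex, by 0.92 ± 0.19. These 3 calls held in all 18 alternatives, while the list's count was 5 to 8 when single libraries were left out and was lowest, at 5, without CTRL-2 or CTRL-3. In C1 Igfals fell by 0.74 ± 0.19 and G6pc, the glucose-6-phosphatase that releases glucose, by 0.65 ± 0.16. The G6pc call was lost on leaving out any 1 of the 8 libraries, with values between -0.71 and -0.60, and the Igfals call on leaving out any but CTRL-1 (-0.82 to -0.64 over all 8). In C3 none was called, 2 had an unadjusted p under 0.05, DESeq2 called 1 and limma-voom none. With C2-3, C2-4 and C3-4 left out, 1 rose and 7 fell in C1, 1 rose and 11 fell in C2, and 1 rose and 6 fell in C3. The median log2 fold change of the list was -0.11 in C1, -0.41 in C2 and -0.20 in C3.

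**Figure D4:**
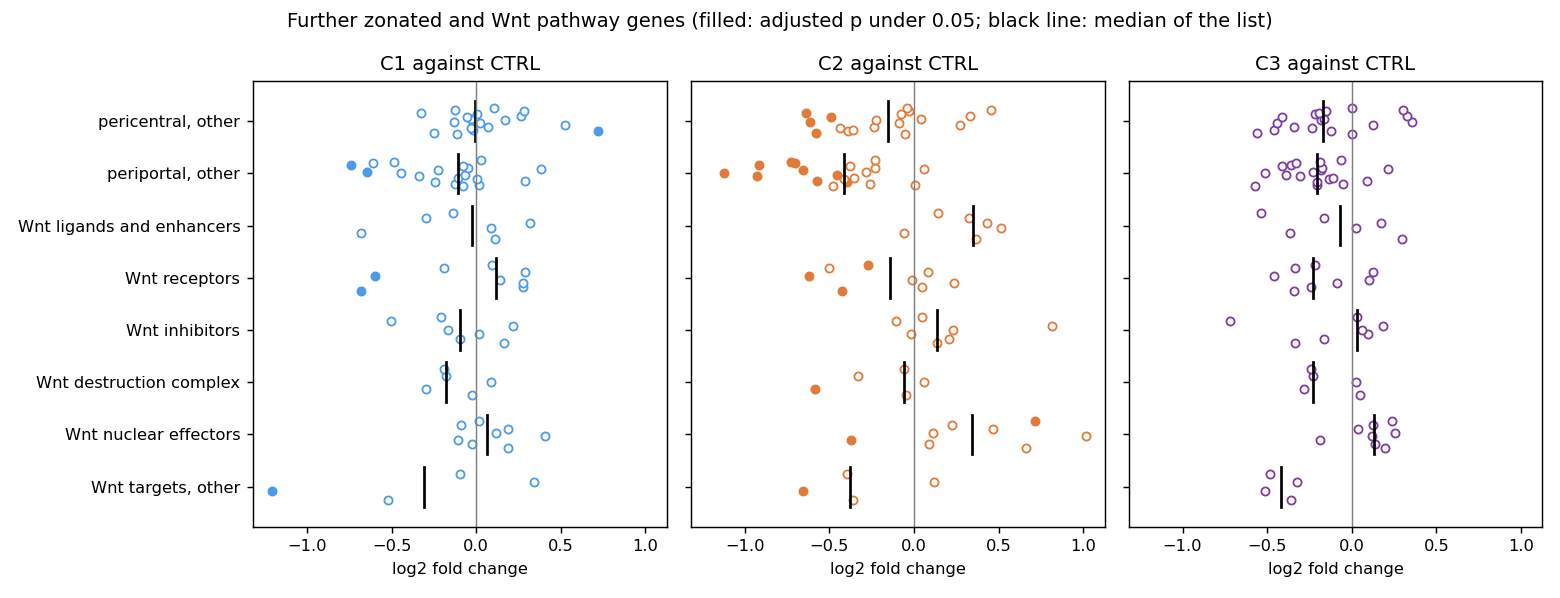
Log2 fold change against CTRL (horizontal axes) of further pericentral, periportal and Wnt pathway genes, 1 point per gene and 1 row per list, filled where the edgeR adjusted p was under 0.05. Black lines are list medians. In C2 the filled points of the other periportal genes, 9 of 19, all lie left of 0.

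The Wnt pathway genes were followed from ligand to target. None of 6 genes for ligands, R-spondins and their secretion (Wnt2, Wnt9b, Rspo1, Rspo3, Wls and Porcn) was called in any group. DESeq2 and limma-voom called none of them, and only C2 had any, 2, with an unadjusted p under 0.05. Wls, the Wnt carrier, stood at 4.93 ± 0.274 CPM in C2 and 3.64 ± 0.577 in CTRL, and Porcn, the Wnt acyltransferase, at 4.92 ± 1.39 and 3.77 ± 0.535. Rspo3, an R-spondin gene, had a log2 fold change of 0.52 ± 0.19 in C2 (edgeR adjusted p = 0.0715). Leaving out CTRL-3 or C2-3 gave 1 call in C2. Leaving out the 3 libraries gave 2, both higher, Rspo3 (0.68) and Wls (0.43).

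Of 8 Wnt receptor genes, 2 fell in C1 and 3 in C2, and none rose with all libraries included. Over all genes 1.39% fell in C1 and 10.2% in C2. The frizzled receptor gene Fzd8 stood at 24.5 ± 3.85 CPM in CTRL and fell by 0.60 ± 0.13 in C1 and 0.62 ± 0.13 in C2 on the log2 scale. Fzd1 fell by 0.68 ± 0.14 in C1 and 0.43 ± 0.14 in C2, and the co-receptor gene Lrp6 by 0.27 ± 0.09 in C2. The Fzd8 call in C2 held in all 18 alternatives. The Fzd1 and Lrp6 calls in C2 were lost in 11 and 13 of 18, the leave-out of the 3 libraries among them (-0.40 and -0.18). Between 0 and 2 receptor calls were left in C1 and 1 to 3 in C2 when single libraries were left out, with 0 without CTRL-4 or C1-4 and 1 without CTRL-2, C1-1 or C1-3 in C1, and 1 without CTRL-2, CTRL-4, C2-3 or C2-4 in C2. In C3 no receptor was called, 4 had an unadjusted p under 0.05, DESeq2 called 1 and limma-voom none. Without C2-3, C2-4 and C3-4, 2 receptors rose and 2 fell in C1 and in C2, and 1 fell in C3. Lgr4, a further R-spondin receptor, was then higher in C1 (0.28) and C2 (0.39), Fzd4 in C1 (0.27) and Fzd5 in C2 (0.36), while Fzd8 was lower in all 3 groups, Fzd1 in C1 and the co-receptor gene Lrp5 in C2 (-1.23). In C3, with all libraries, Lrp6 stood at 49.4 ± 2.61 CPM and 57.3 ± 2.45 in CTRL, and Lgr4 at 45.5 ± 4.26 and 41.7 ± 2.09.

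No inhibitor of the pathway was called among the 7 of 8 that could be tested, in any group or by DESeq2 or limma-voom, and none had an unadjusted p under 0.05. Rnf43, a ligase that removes frizzled receptors, stood at 32.4 ± 8.04 CPM in C2 and 27.6 ± 2.05 in CTRL. Notum, which inactivates Wnt ligands, stood at 24.7 ± 8.59 and 24.8 ± 3.95 CPM. Without the 3 libraries 1 inhibitor fell in C2, and it was Notum (-0.42, edgeR adjusted p = 0.0103). Of 5 destruction complex genes, only Axin1 was called, lower in C2 by 0.59 ± 0.18 on the log2 scale, and that call was lost in 10 of 18 alternatives, among them the leave-out of CTRL-1, CTRL-2, CTRL-4, C2-1, C2-2 or C2-4. With C2-3, C2-4 and C3-4 left out, 1 of the 5 rose and 3 fell in C2.

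Of 8 nuclear effectors, 1 rose and 1 fell in C2. Tcf7l2, the main TCF partner of beta-catenin in liver, rose from 18.0 ± 2.62 to 29.7 ± 7.47 CPM (log2 fold change 0.72 ± 0.16, edgeR adjusted p = 0.00624), a call that held in all 18 alternatives at 0.40 to 0.84, with 0.40 without the 3 libraries. Ctnnb1, beta-catenin itself, fell from 182 ± 3.74 to 140 ± 14.6 CPM (log2 fold change -0.37 ± 0.11, edgeR adjusted p = 0.0283), and that call was lost in 8 of 18 alternatives, including each leave-out of CTRL-2, CTRL-3, CTRL-4, C2-3 or C2-4. Ctnnb1 stood at -0.24 without the 3 libraries and was called, and 2 effectors rose (Tcf7l2 and Tcf7) and 2 fell (Ctnnb1 and Bcl9l) in C2. Among 4 further targets of the pathway, the growth regulator Myc fell in C1 from 30.6 ± 4.48 to 13.3 ± 1.08 CPM (log2 fold change -1.21 ± 0.22, edgeR adjusted p = 0.00699). In C2 Myc fell by 0.66 ± 0.22 on the log2 scale, by 1.21 without the 3 libraries, and the C2 call was lost in 10 of 18 alternatives, including every leave-out of a CTRL library, C2-1 or C2-2. Sp5, Tnfrsf19 and Ccnd1, the cyclin D1 gene, were not called by edgeR in any group with all libraries included. Ccnd1 in C1 (-0.52 ± 0.15, edgeR adjusted p = 0.0796) was called lower by DESeq2 (adjusted p = 0.0204), and by edgeR without the 3 libraries (-0.53, adjusted p = 8.15e-06). No destruction complex gene or nuclear effector was called in C1 by any of the 3 tools, and none had an unadjusted p under 0.05 there. In C3 no gene of these 3 lists was called by any tool with all libraries included, while 1 destruction complex gene and 2 further targets had an unadjusted p under 0.05. Gsk3b, a kinase of the destruction complex (-0.30), and Myc (-0.66) were lower there once the 3 libraries were left out. In the median of each list the nuclear effectors stood at 0.34 and the ligands at 0.35 in C2, beside 0.03 for all genes, and at -0.08 and 0.31 when the 3 libraries were left out.

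Markers of other cells moved with some of these results. Among 10 markers of sinusoidal endothelial cells, which line the lobule, 7 rose in C2, against 8.03% of all genes, and none in C1 or C3. Their summed level was 189 to 202 CPM for CTRL, 222 to 244 for C1, 277 to 327 for C2 and 208 to 255 for C3, with no marker at 0. At an unadjusted p under 0.05 there were 5 in C1 and 2 in C3, DESeq2 called 2 in C1 and none in C3, and limma-voom called none in either. Without C2-3, C2-4 and C3-4 5 rose in C1, 6 in C2 and none in C3. Among 7 hepatocyte markers 1 fell in C1, 4 in C2 and none in C3, where 3 had an unadjusted p under 0.05 and DESeq2 and limma-voom called none. The C1 call (Hnf4a, a hepatocyte transcription factor) was lost on leaving out any 1 library, and the C2 count was then 2 to 5. With those libraries left out 4 hepatocyte markers fell in C1 and 4 in C3, beside 3 in C2. The list's median log2 fold change in C1, C2 and C3 then went from -0.35, -0.55 and -0.41 to -0.36, -0.23 and -0.29. The mean log2 CPM of the hepatocyte markers was 12.01 to 12.21 for CTRL, 11.77 to 11.92 for C1, 11.05 to 11.90 for C2 and 11.35 to 11.88 for C3. Of 6 Kupffer cell markers Marco fell in C2 (-1.06 ± 0.23), and of 7 stellate cell markers Dcn rose in C2 (0.56 ± 0.19). Among B and plasma cell markers Jchain rose in C1 (1.19 ± 0.24) and fell in C2 (-0.85 ± 0.25), while Cd79a (1.01) and Ms4a1 (0.97) rose in C2. Of these calls only the Jchain fall was lost without the 3 libraries (-0.72). With all libraries no other gene of these lists, nor the 1 exocrine pancreas marker tested, was called. The part of these cell types in the changes of the zonation markers was not tested.

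Cdh1 and Pigr are also used by bile duct and gut epithelium, and Lgr5 and Axin2 by gut stem cells. Of 8 cholangiocyte markers 7 were tested, and 1 rose in C1 (Sox9) and 1 in C2 (Spp1). In C3 none was called by edgeR, DESeq2 or limma-voom, and 4 had an unadjusted p under 0.05. Their sum was 37.5 to 40.3 CPM for CTRL, 37.3 to 47.3 for C1, 46.6 to 53.6 for C2 and 36.6 to 53.1 for C3, with at most 1 marker at 0 in a library. Most of that sum was Spp1, at 24.0 CPM in CTRL and 33.6 in C2, while the rest of the list gave mixed signs. Krt19 (-0.66), Epcam (-0.84) and Cldn7 (-1.32) had negative log2 fold changes in C2 that were not called, and the list's median there was -0.12. Spp1 rose in C2 also without the 3 libraries, while Krt19 and Epcam fell, and the median was -0.67. Of 8 intestinal markers 4 rose in C1 (against 0.938% of all genes), and 5 fell in C2 (10.2%) and 5 in C3 (0.876%). In the fit without the 3 libraries C1 had 6 higher and 1 lower, C2 had 1 higher and 5 lower, and C3 had 6 lower. Their sum was 60.6 to 85.1 CPM for CTRL, 81.1 to 96.4 for C1, 56.5 to 89.0 for C2 and 54.1 to 65.4 for C3, most of it Fabp2 and Lgals4. Up to 4 markers were at 0 in a C2 library and up to 3 in a C3 library, with Sis, Reg1, Rbp2 and Cdh17 at most 0.149 CPM in both groups. The part of gut or bile duct RNA in the levels of these 4 zonation markers was not tested.

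**Figure D5:**
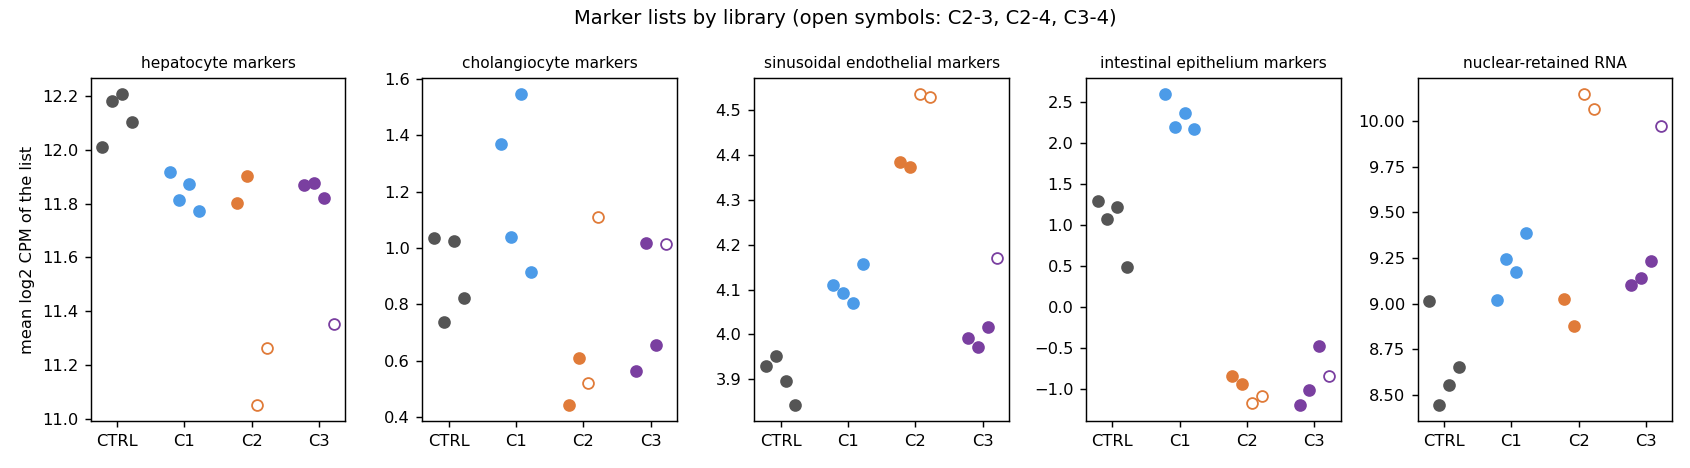
Mean log2 CPM (vertical axis) of the marker lists in each library, with C2-3, C2-4 and C3-4 as open symbols. The nuclear-retained RNAs are highest in those 3 libraries, at 9.97 to 10.15. The hepatocyte markers are lowest in the same 3, at 11.05 (C2-3), 11.26 (C2-4) and 11.35 (C3-4), while C2-1 and C2-2 are at 11.80 and 11.90.

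For each marker the genes with the most similar pattern were taken over the 16 libraries. The measure was the root mean square difference in log2 CPM, with each gene centred on its CTRL mean, among 9225 or 9226 genes of at least 5 CPM. For Rgn these were Aadac (0.0489) and Bnip3 (0.0554), for Glul Eprs (0.0542) and Spop (0.0603), and for Hsd17b13 Ccdc47 (0.0545) and Ube2n (0.0631). The distance of these markers from a flat line at their CTRL mean was 0.369, 0.194 and 0.285. Oat was nearest to Ces1g (0.0843) and Rdh16f1 (0.117), Pigr to Cmtm6 (0.0858) and Cpn2 (0.0910), and Cdh1 to Pxdc1 and Iah1 (both 0.104). Cdh1 itself was only 0.164 from a flat line. The measure is not scaled to the size of a change. The called markers with the largest changes had larger distances to their nearest genes, and also lay furthest from a flat line. Aldh1b1 was nearest to Urad (0.196) and C1ra (0.205), at 0.802 from a flat line. Tbx3 was nearest to Hes1 (0.197) and Slc17a8 (0.207), at 0.722 from a flat line. Axin2 was nearest to Neat1 and Abcc5 (both 0.200), and Neat1 is also 1 of the 4 nuclear-retained RNAs by which the 3 libraries stood apart. Lgr5 was nearest to Nfxl1 (0.164) and Plekho1 (0.169).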

How the data were processed

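Per the labels' protocols, poly(A) RNA was isolated from total RNA of flash-frozen liver and made into directional libraries. Tools listed in the submitters' processing notes are STAR 2.5.2b, FastQC 0.11.5 and bcl2fastq 2.19.1.403, with the genome build GRCm38. Which program counted the reads, with which strand setting, annotation and filters, the sources used here do not say. The authors deposited raw, unnormalised counts for 53372 genes in 16 libraries, all of which were used.

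Symbols and coordinates were checked against GENCODE M21, which held 53267 of the identifiers, 49723 with the same symbol. Of 32916 genes with a count, 17810 passed filterByExpr. Counts were scaled by TMM and tested in edgeR 4.0.16 (glmQLFit with robust estimation, glmQLFTest, R 4.3.3), with 1 model for 16 libraries, the group as its term and 12 residual degrees of freedom. P-values were Benjamini-Hochberg adjusted over all genes tested, and a gene was called under 0.05. The common coefficient of variation was 0.189. RPKM divides CPM by merged exon length. The fit was tested on simulated data. Libraries of 1 group differed beyond counting noise (chi-square per degree of freedom 5.45 to 710.4 over 24 pairs), so none was taken for a copy of another.

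The markers, gene lists and tests were chosen with earlier results of these data known. Named genes were the 10 markers, up to 3 called genes with the largest change per list and comparison, or the 2 with the highest CPM where none was called, and the 2 genes most like each marker. Genes that overlap a marker and some further genes of the lists were named after their values were seen. Alternatives were other scalings, filters and tools (DESeq2 1.42.0, limma-voom 3.58.1), protein-coding genes only, a replicate block, the 2 groups compared alone, each library of the groups compared left out in turn, and C2-3, C2-4 and C3-4 left out together.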

Additional observations from a re-analysis of the deposited data

Results flagged for a closer look

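Within the groups of 4 libraries, 40 sets of marker values were screened for a library far from the others, by Dixon's ratio of the gap to the range against its 95% critical value, and 2 passed it. Chance alone passes about 1 in 20 such sets. Aldh1b1 in C3-4 stood at 77.8 CPM, where the other C3 libraries gave 129.6 to 139 CPM. Without the 3 libraries that stood apart, the C3 mean was 135 ± 5.08 CPM (n = 3). Cdh1 in C2-4 stood at 14.7 CPM, where the other C2 libraries all gave 17.0 CPM.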

How the results depend on the processing

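The number of genes called in C1, C2 and C3 against CTRL was 414, 3254 and 249. It was 2688, 5177 and 1125 without C2-3, C2-4 and C3-4, 896 in C1 and 737 in C3 with DESeq2, and 2557 in C1 and 1492 in C2 when only the 2 groups compared were fitted. Leaving out 1 library of the 2 groups compared gave 159 (without C1-4) to 294 in C1, 1972 (without CTRL-4) to 4492 in C2 and 97 (without CTRL-3) to 210 in C3. Leaving out 1 library of another treated group, which was added after seeing the data, gave 341 to 588 (without C2-3) in C1, 2886 to 3678 (without C3-4) in C2 and 176 to 450 (without C2-3) in C3, and called the same markers as the fit of all libraries. The number of markers called was 1, 4 and 1. In C1 it was 4 without the 3 libraries and 5 with only the 2 groups compared. Leaving out 1 library of the 2 groups gave 1 in C1, 3 to 4 in C2 and 0 to 1 in C3. Nothing in the labels says that replicate numbers pair the libraries. Correlations of deviations ran from -0.30 to 0.51 over 24 same-number pairs, 8 of them over 0.1. Of 16 libraries, 5 were most like one of their own number. The libraries that stood apart also correlated across numbers (0.59 for C2-3 and C3-4), so these values cannot settle whether numbers pair libraries. With the number as a replicate block, 435, 3426 and 256 genes and 1, 4 and 1 markers were called, and no marker's call changed. The log2 fold changes of some uncalled markers changed sign. Without C2-3, C2-4 and C3-4, Hsd17b13 in C2 was 0.015, Oat in C2 0.25 and Rgn in C2 against C1 0.38. With limma-voom, Rgn in C2 was -0.025 and Rgn in C3 against C2 0.036. Leaving out 1 library of the groups compared, the range was -0.013 to 0.086 for Cdh1 in C3, -0.29 to 0.0064 for Oat in C3, -0.089 to 0.20 for Rgn in C3, -0.11 to 0.35 for Rgn in C2, -0.34 to 0.12 for Rgn in C2 against C1 and -0.30 to 0.15 for Rgn in C3 against C2. The cause was not tested. With 36 to 200 counts per library, Lgr5 and Axin2 are the markers most limited by depth.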

Other observations

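A pair of annotated genes overlaps the start of Glul, and both were picked out after their values were seen. Teddm2 (1:153849542-153900228, minus strand) shares 116 bases of exon with Glul, and the microRNA gene Mir8114 (1:153899926-153900036, plus strand) shares 93. Mean Teddm2 levels were 19.2 CPM for CTRL, then 15.3 (C1), 9.28 (C2) and 12.1 (C3). Its log2 fold change was -1.05 ± 0.10 in C2 (edgeR adjusted p = 4e-06) and -0.67 ± 0.10 in C3 (edgeR adjusted p = 0.00127). Mir8114 stood at 12.6, 9.39, 5.15 and 7.50 CPM, and fell in C2 (-1.29 ± 0.11, edgeR adjusted p = 2.71e-06) and in C3 (-0.76 ± 0.11, edgeR adjusted p = 0.00117). Its C1 value of -0.42 ± 0.11 (edgeR adjusted p = 0.0485) lost its call in most alternatives. The C2 values without C2-3, C2-4 and C3-4 were -1.13 for Teddm2 and -1.29 for Mir8114. Glul itself was not called in any group. Since the strand setting of the counts is not known and the rows share bases, reads cannot be assigned among these 3 genes with certainty.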
